A study of Mus musculus with 6 samples.

Results

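Transcripts of 10 genes that restrain signaling through the extracellular signal-regulated kinases (ERK) were followed in testicular germ cells of mice that lack Mgat1 from spermatogonia onward. They were the dual-specificity phosphatases Dusp1, Dusp2, Dusp4, Dusp5 and Dusp6, the Sprouty genes Spry1, Spry2 and Spry4, and the Sprouty-related genes Spred1 and Spred2. Probe sets were taken where the probe table of the array gave a member as their only gene symbol, and their mean on each array served as the gene's value there. This gave 71 probe sets for the 10 members among 23152 genes with a value, and all 10 were measured.

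The 3 Mgat1 cKO males carried Mgat1[F/F] alleles with Stra8-iCre, a Cre recombinase driven by the promoter of the spermatogonial gene Stra8. The 3 control males carried the same floxed alleles without Cre, so no array came from mice with Cre alone. All 6 mice were 22 days old and on the FVB background, and each gave RNA from the germ cells of a single testis, released with collagenase and trypsin, to an Affymetrix mouse gene array of its own. MGAT1 is the N-acetylglucosaminyltransferase with which complex N-glycan synthesis begins, and the comparison asked which transcripts differ in mutant germ cells before the tubules look abnormal. The unit throughout is the log2 signal after robust multi-array averaging (RMA), so a difference of 1 is a 2-fold change, and signals of different genes are not set against each other.

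Growth factor receptors signal through Ras, Raf and MEK to ERK, which enters the nucleus and turns on early response genes. Among the targets of the pathway are its own inhibitors. Dual-specificity phosphatases remove the activating phosphates from MAP kinases, Sprouty proteins act between the receptor and Raf, and Spred proteins bring the Ras inactivator neurofibromin to the membrane. In the testis, KIT and GDNF signaling use the route in spermatogonia, and Sertoli and other somatic cells use it too.

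Of the 10 members, 5 were lowered in Mgat1 cKO germ cells, 1 was raised and 4 did not pass the test (limma, Benjamini-Hochberg adjusted p under 0.05 over all genes). Dusp1, Dusp5, Dusp6, Spry2 and Spred1 were lowered, and Dusp4 was raised. Across all genes 18.4% were lowered and 13.3% were raised and the share of members lowered was 50%. The median log2 fold change of the members (Mgat1 cKO minus control) was -0.24, against -0.024 for all genes. A list of 11 housekeeping genes had nearly the same median (-0.23), with 2 lowered and none raised. The median of the members was -0.14 without control replicate 2. Leaving out single arrays brought the count of lowered members to between 2 and 4: it was 2 without cKO replicate 1, cKO replicate 3 or control replicate 2, 3 without cKO replicate 2 or control replicate 3, and 4 without control replicate 1. The share of all genes lowered in these fits was 12.6% to 16.1%, so that 2 of 10 members lies near it. Dusp1, Spry2 and Dusp4 kept their calls each time.

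**Figure D1:**
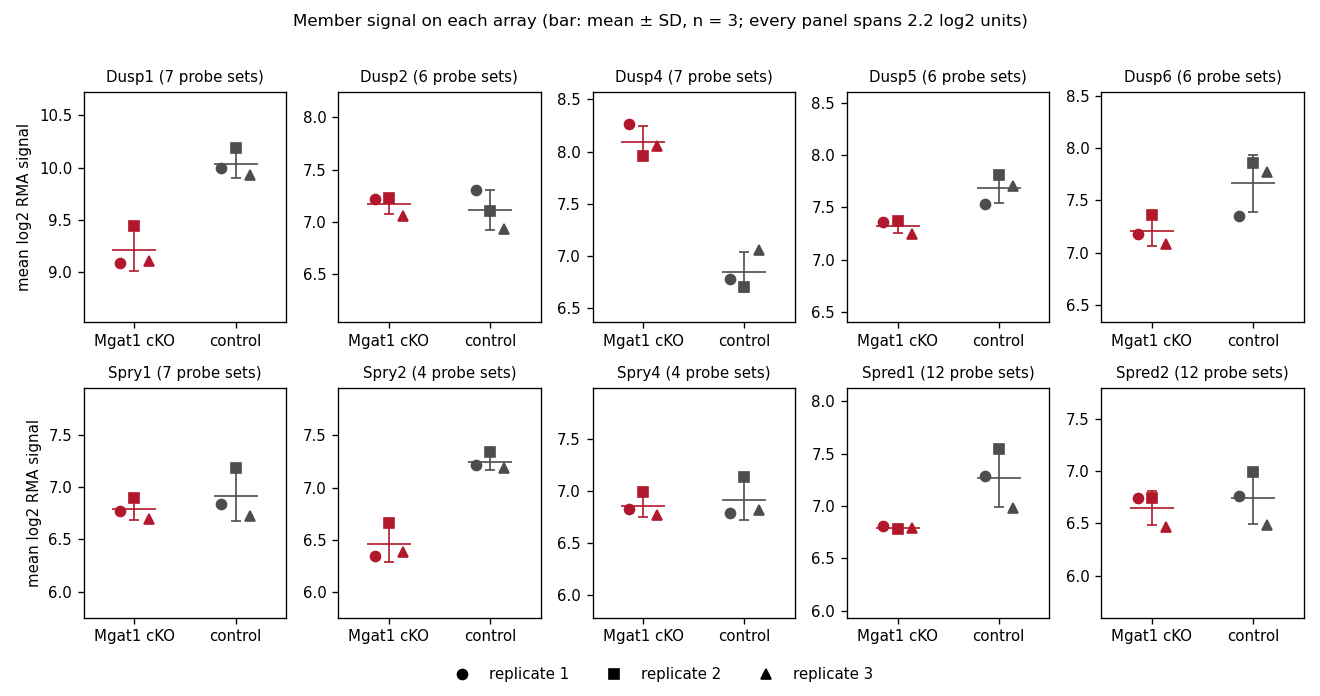
Mean log2 RMA signal (y axis, each panel spanning the same number of log2 units) of the 10 members on each array of Mgat1 cKO (red) and control (grey) mice, with bars for the mean ± SD of 3 mice. The groups lie apart in Dusp1, Dusp4, Dusp5, Spry2 and Spred1, and Dusp4 alone is higher in the cKO among them.

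The preparations also differed in markers of the cells they held. All 14 elongating spermatid markers were raised (median 2.44), and the mean of the list was 10.46 to 10.74 on Mgat1 cKO arrays and 7.74 to 7.97 on control arrays. Of 13 round spermatid markers 11 were raised and none lowered (median 1.65). Of 15 macrophage markers 9 were lowered and none was raised (median -0.57, list mean 6.74 to 7.36 on cKO and 7.60 to 7.998 on control arrays), with Cd74 at -2.37. Of 14 peritubular and stromal markers 8 were lowered (median -0.52, 7.62 to 7.99 on cKO and 8.20 to 8.52 on control arrays), as were 5 of 15 Sertoli cell markers (median -0.32, 7.89 to 8.20 on cKO and 8.28 to 8.40 on control arrays) and 8 of 14 meiotic markers (median -0.45), of which 2 were raised. In the peritubular and stromal list, the contractile genes Acta2 (0.12), Myh11 (-0.063), Cnn1 (0.15), Tagln (-0.047) and Des (-0.30) did not pass. Leydig cell markers had 2 of 9 lowered and 1 raised (median -0.58). Their list means overlapped, at 7.48 to 8.61 on cKO and 8.54 to 8.98 on control arrays. Against the control mean, cKO replicate 1 was at -1.24 and cKO replicates 2 and 3 at -0.10 and -0.39. Of 10 endothelial markers 2 were raised and none was lowered (median 0.028). Spermatogonial markers had 2 of 14 lowered, Kit and Id4, and none raised (median -0.045). The scale has no level of 0 and gives every list a value on every array, so these values cannot show whether a cell type was present. The part of these lists in the member values was not tested. In such bulk RNA, fewer cells of a type and less RNA per cell cannot be told apart. The targeted gene, Mgat1, was 6.79 ± 0.093 in cKO and 6.91 ± 0.090 in control preparations (SD, n = 3 each; adjusted p = 0.356) over 12 probe sets, and which of these lie in the deleted segment is not known here.

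Dusp1 encodes a nuclear phosphatase of ERK, p38 and JNK and is itself an early response gene. Its signal was 9.08, 9.44 and 9.10 on the 3 Mgat1 cKO arrays, against 9.99, 10.19 and 9.92 on the 3 control arrays. The highest cKO array thus lay 0.49 below the lowest control array. The means were 9.21 ± 0.20 and 10.04 ± 0.14 (SD, n = 3 each), a log2 fold change of -0.83 (95% interval -1.10 to -0.55, adjusted p = 0.00106). Of its 7 probe sets 6 were lower, at -0.70 to -1.27, and each of these passed the test among single probe sets (lowest adjusted p = 0.0129). The remaining probe set averaged 5.67 in the cKO and 5.32 in controls and did not pass.

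The 250 bases before the RefSeq start of Dusp1 are shown because Dusp1 was the only member of the 8 with a promoter in the table used (Dusp4 and Spry4 were not searched) to hold a full cAMP response element, the palindrome TGACGTCA, which stands in capitals. They lie at chr17:26508473-26508722 of GRCm38.p6 on the minus strand and are written 5′ to 3′:
Dusp1: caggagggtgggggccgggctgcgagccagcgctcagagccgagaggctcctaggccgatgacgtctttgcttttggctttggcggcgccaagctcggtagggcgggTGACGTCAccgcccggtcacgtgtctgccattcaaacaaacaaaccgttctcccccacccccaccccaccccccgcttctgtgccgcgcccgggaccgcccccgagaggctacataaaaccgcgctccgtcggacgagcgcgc
The element runs from -143 to -136 relative to the start. It was found in 588 of 32851 RefSeq promoters, each searched over 250 bases before and 50 after the start (1.79%). A match is a description of letters only.

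Dusp5 and Dusp6 are phosphatases with a strong preference for ERK, the first in the nucleus and the second in the cytoplasm, and Dusp6 is a widely used readout of the pathway. Dusp5 signal was 7.36, 7.37 and 7.24 on cKO arrays, against 7.53, 7.81 and 7.70 on control arrays. The groups did not overlap, although the nearest arrays of Dusp5 were closer than those of Dusp1. The log2 fold change was -0.36 (95% interval -0.58 to -0.13, adjusted p = 0.0251). Of 6 Dusp5 probe sets 5 were lower and none passed alone (lowest adjusted p = 0.0608). The Dusp5 call was lost without cKO replicate 1 (-0.37, adjusted p = 0.0539), 2 (-0.38, 0.0526) or 3 (-0.32, 0.0759) and without control replicate 2 (-0.29, 0.088) or 3 (-0.35, 0.0655).

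Of the 8 members searched, Dusp5 was the only one with a CArG box, the binding motif of serum response factor, in its promoter window, and the 250 bases before its start (chr19:53528895-53529144, GRCm38.p6, plus strand) are shown for that reason, with the adjoining pair of matches in capitals:
Dusp5: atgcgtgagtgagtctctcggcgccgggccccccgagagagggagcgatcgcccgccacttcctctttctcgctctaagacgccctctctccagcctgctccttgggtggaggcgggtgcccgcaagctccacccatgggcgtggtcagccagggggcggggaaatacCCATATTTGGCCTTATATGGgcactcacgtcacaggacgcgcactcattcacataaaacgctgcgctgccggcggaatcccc
The matches run from -82 to -73 and from -72 to -63. A CArG box was found in 535 of the 32851 promoters (1.63%).

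Dusp6 signal was 7.18, 7.36 and 7.08 on cKO arrays, against 7.35, 7.86 and 7.78 on control arrays. Here the groups overlapped, since cKO replicate 2 reached the level of control replicate 1. The log2 fold change was -0.45 (95% interval -0.77 to -0.13, adjusted p = 0.0375). All 6 probe sets of Dusp6 were lower, at -0.097 to -0.84, and none passed alone (lowest adjusted p = 0.0782). The call was lost without cKO replicate 1 (-0.44, adjusted p = 0.0976) or 3 (-0.39, 0.119) and without control replicate 2 (-0.35, 0.125) or 3 (-0.40, 0.112).

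Dusp4, a nuclear phosphatase of ERK and JNK that ERK itself induces in many cells, went the other way. Its signal was 8.26, 7.96 and 8.05 on cKO arrays, against 6.78, 6.70 and 7.06 on control arrays, which left a gap of 0.90 between the groups. The means were 8.09 ± 0.15 and 6.85 ± 0.19 (SD, n = 3 each), a 2.36-fold rise (log2 fold change 1.24, 95% interval 0.96 to 1.52, adjusted p = 7.56e-05). All 7 probe sets were higher, at 0.78 to 1.85, with every cKO array above every control array in each, and 4 passed alone. The share of all probe sets with the groups apart was not counted, so such counts, here and below, have no comparison. The brightest of them, probe set 17500541, was 9.91 in the cKO and 9.03 in controls (log2 fold change 0.87, adjusted p = 0.0401).

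A rise of this size was not rare on these arrays: 755 genes (3.26%), Dusp4 included, rose at least as much. The genes whose signal over the 6 arrays was most like that of Dusp4 were Dapl1 (Pearson r = 0.9998), 4930503B20Rik, Cypt3, Plac8l1 and 4930474N09Rik. With only 6 arrays in separated groups, 1653 genes (7.14%) had an r of 0.95 or more with Dusp4. These 5 genes rose by 1.09 to 1.83 on the log2 scale, a direction set by picking them for likeness to Dusp4.

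Dusp2, an inducible nuclear phosphatase first known from lymphocytes, had 7.22, 7.23 and 7.06 on cKO arrays, against 7.30, 7.11 and 6.93 on control arrays. The groups overlapped, and the log2 fold change of 0.055 (95% interval -0.20 to 0.31, adjusted p = 0.754) left room for a change of either sign. Of its 6 probe sets 3 were lower and 3 higher, and none passed.

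**Figure D2:**
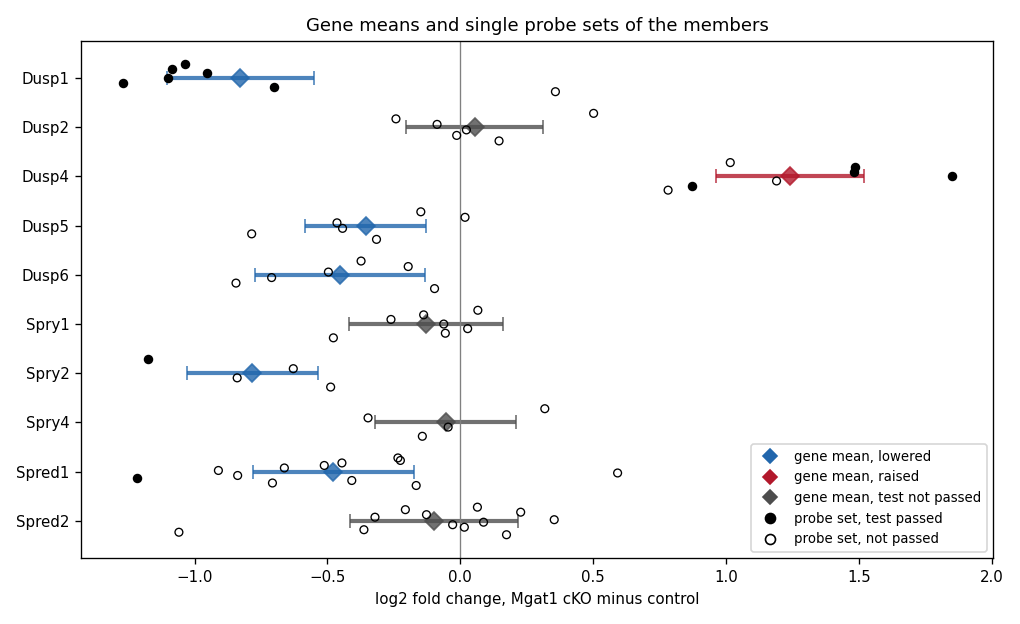
Log2 fold change (x axis, Mgat1 cKO minus control) of each member's gene mean with its 95% interval (diamonds) and of its single probe sets (circles, filled where the test was passed). The probe sets of Dusp4 all lie above 0 and those of Dusp6 and Spry2 all lie below 0, whereas the other members have probe sets on both sides.

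Among the Sprouty genes, Spry2 changed. Its signal was 6.35, 6.66 and 6.38 on cKO arrays, against 7.22, 7.34 and 7.18 on control arrays. The groups lay 0.52 apart, and the means of 6.46 ± 0.17 and 7.25 ± 0.083 (SD, n = 3 each) gave a 1.72-fold fall (log2 fold change -0.78, 95% interval -1.03 to -0.54, adjusted p = 0.000744). All 4 probe sets of Spry2 were lower, at -0.49 to -1.18, with the groups apart in each. Only the dimmest, probe set 17309341, passed alone, with 4.07 in the cKO and 5.25 in controls (adjusted p = 0.0334).

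Spry1, a regulator of RET signaling in the developing kidney, had 6.77, 6.89 and 6.70 on cKO arrays, against 6.83, 7.19 and 6.73 on control arrays. The groups overlapped, and the log2 fold change was -0.13 (95% interval -0.42 to 0.16, adjusted p = 0.482). Spry4, a Sprouty induced by fibroblast growth factor signaling, had 6.83, 6.99 and 6.76 on cKO arrays, against 6.79, 7.13 and 6.81 on control arrays. Its log2 fold change was -0.054 (95% interval -0.32 to 0.21, adjusted p = 0.762). Of the 4 Spry4 probe sets, 1 had every cKO array above every control array (0.32) and another every cKO array below (-0.35), and neither passed. The difference between Spry2 and the other Sprouty genes was not tested.

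Spred1, which binds neurofibromin, had 6.81, 6.78 and 6.79 on cKO arrays, against 7.28, 7.55 and 6.98 on control arrays. The cKO arrays were nearly level (SD 0.015) and the control arrays spread out (SD 0.28), without overlap. The log2 fold change was -0.48 (95% interval -0.78 to -0.17, adjusted p = 0.0245). Of its 12 probe sets 11 were lower, 6 of them with the groups apart, and 1 passed alone (probe set 17374464, -1.22, adjusted p = 0.0262). The Spred1 call was lost without cKO replicate 1 (-0.49, adjusted p = 0.0607), 2 (-0.47, 0.0639) or 3 (-0.48, 0.0655) and without control replicate 1 (-0.47, 0.0514) or 2 (-0.34, 0.0719).

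Spred2, its close relative, had 6.74, 6.74 and 6.46 on cKO arrays, against 6.76, 6.99 and 6.48 on control arrays. The groups overlapped, and the log2 fold change was -0.099 (95% interval -0.42 to 0.22, adjusted p = 0.632). Its 12 probe sets were divided evenly between lower and higher, and the lowest (-1.06) did not pass either (adjusted p = 0.201). Whether Spred1 and Spred2 changed to different extents was not tested.

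Counted over arrays, 4 members had every cKO array below every control array (Dusp1, Dusp5, Spry2 and Spred1), where 26.6% of all genes did. Dusp4 was the 1 member with every cKO array above every control array, where 20.1% of all genes were so placed, and the groups overlapped in the other 5. Taken singly, 49 of the 71 member probe sets were lower and 22 higher. Of these 8 were called lowered (11.3%, against 3.97% of all probe sets), 6 from Dusp1 and 1 each from Spry2 and Spred1. The 4 called raised (5.63%, against 4.98% of all probe sets) were all from Dusp4. Without single arrays the count of lowered probe sets was 0 (cKO replicate 1 or control replicate 2), 1 (cKO replicate 3), 3 (control replicate 1 or 3) or 5 (cKO replicate 2), and the share of all probe sets lowered fell as well, to between 0.693% and 2.19%. The count raised was 2 without control replicate 1 or any single cKO array, where 2.70% to 4.29% of all probe sets were raised.

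The arrays of a genotype were not level across the members. Control replicate 2 was the highest of the control arrays in 8 of 10 members, against 31.7% of all genes, and its members averaged 0.14 above the control mean. cKO replicate 2 was the highest of the cKO arrays in 7 members (30.5% of all genes) and averaged 0.086 above the cKO mean. cKO replicate 3 was the highest in none and averaged 0.092 below. On control replicate 2, Leydig cell markers lay 0.27 above their control mean, macrophage markers 0.24, endothelial markers 0.18, stromal markers 0.16 and immediate early genes 0.14. Round spermatid markers lay 0.14 below theirs and elongating spermatid markers 0.10 below. Against the control mean, macrophage markers were at -1.02, -0.39 and -0.63 on cKO replicates 1, 2 and 3. Sertoli cell markers were at -0.14, -0.39 and -0.46 in the same order. The part of these differences in the member values was not tested.

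**Figure D3:**
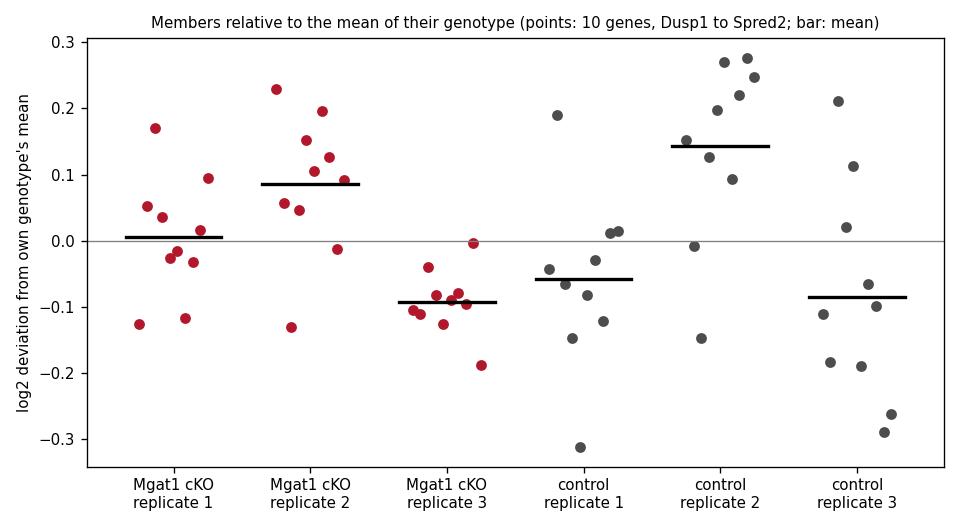
Deviation of each member from the mean of its own genotype (y axis, log2 units) on the 3 Mgat1 cKO and 3 control arrays, with a bar for the mean of the 10 members. Most members lie above 0 on control replicate 2 and on cKO replicate 2 and below 0 on cKO replicate 3.

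The other MAP kinase phosphatases had 1 of 5 raised and none lowered (median -0.079). Dusp10, a phosphatase of p38 and JNK, had 7.57, 7.45 and 7.35 on cKO arrays, against 6.43, 6.47 and 6.44 on control arrays, a log2 fold change of 1.01 (adjusted p = 4.43e-05). The groups were well apart, as they were in Dusp4. Dusp9 (-0.35, adjusted p = 0.116) and Dusp16 (-0.18, adjusted p = 0.166) did not pass. Of the remaining family members, Spred3 was raised (0.41, adjusted p = 0.036) and Spry3 had a log2 fold change of 0.0057 (adjusted p = 0.974).

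Of 21 other negative regulators of Ras and ERK, 6 were lowered and 3 raised (median -0.17). Errfi1, a feedback inhibitor of the EGF receptor, had 8.06, 8.35 and 8.09 on cKO arrays, against 9.12, 9.18 and 9.16 on control arrays (log2 fold change -0.99, adjusted p = 0.000104). Dusp3, a small nuclear phosphatase of ERK and JNK, was raised (1.06, adjusted p = 0.000333), as was Il17rd, also known as Sef, an inhibitor of FGF signaling (0.61, adjusted p = 0.00619). Errfi1 and Dusp3 thus differed in direction, as Dusp1 and Dusp4 did among the members.

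The cascade itself had 9 of 17 measured genes lowered and 2 raised (median -0.28). The docking protein Frs2 was at -0.75 (adjusted p = 0.000462) and the Ras activator Sos2 at -0.68 (adjusted p = 0.0012), while the ERK substrate Rps6ka1 was raised (0.69, adjusted p = 0.00124). Mapk3, which encodes ERK1 itself, was higher on each cKO array than on any control array but did not pass (0.26, adjusted p = 0.0572).

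Upstream, 5 of 14 receptors were lowered and none was raised (median -0.15). Pdgfra, which also stands in the stromal marker list, was 7.25, 8.09 and 7.70 on cKO arrays, against 9.32, 9.11 and 8.83 on control arrays (log2 fold change -1.41, adjusted p = 0.000851). Egfr was 6.53, 7.18 and 6.96 on cKO arrays, against 7.79, 7.68 and 7.38 on control arrays (-0.73, adjusted p = 0.0109). In both genes the groups lay apart. Fgfr2 was also lowered (-0.68, adjusted p = 0.0397), with overlapping groups.

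Downstream, 12 of 18 immediate early genes were lowered and 2 raised (median -0.74). Btg2, an antiproliferative gene, had 7.73, 7.98 and 7.90 on cKO arrays, against 9.36, 9.54 and 8.98 on control arrays (log2 fold change -1.43, adjusted p = 8.14e-05). The transcription factor gene Egr1 (-1.28, adjusted p = 0.000146) and Zfp36, whose protein destabilizes AU-rich mRNAs (-1.19, adjusted p = 0.000298), were lowered as well. Among 9 ETS factors that act with the ERK route, Etv5, which GDNF maintains in spermatogonial stem cells, had 6.70, 6.76 and 6.67 on cKO arrays, against 7.04, 7.33 and 7.41 on control arrays (-0.55, adjusted p = 0.00572). Elk4 was lowered (-0.40, adjusted p = 0.0392), Erf was raised (0.50, adjusted p = 0.0154), and Etv4, commonly read with Etv5 and Dusp6, did not pass (0.23, adjusted p = 0.164).

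**Figure D4:**
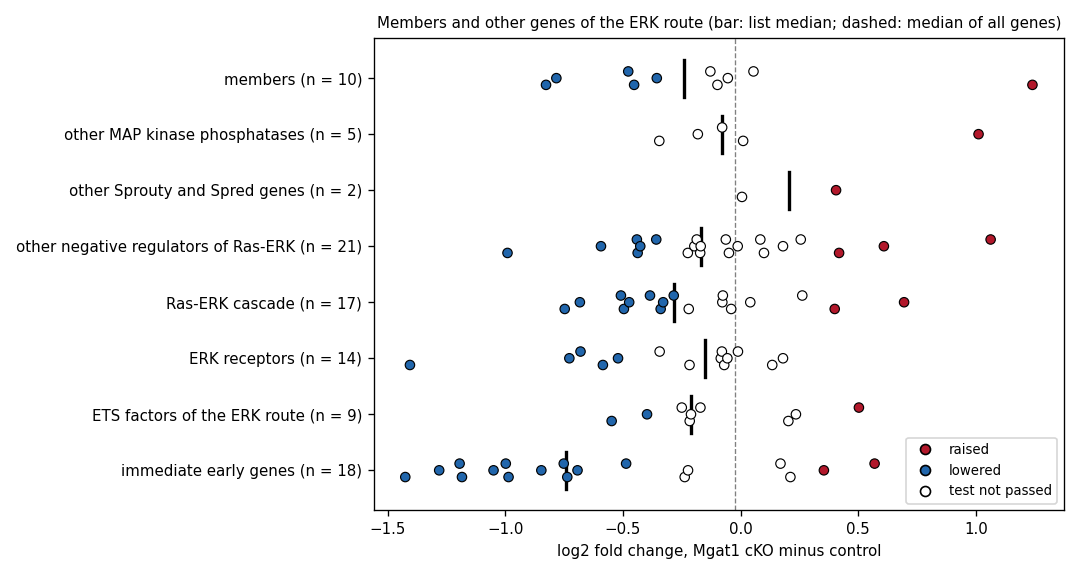
Log2 fold change (x axis, Mgat1 cKO minus control) of the 10 members and of the genes of 7 other lists of the ERK route, colored by the limma call, with the list median as a bar and the median of all genes dashed. Lowered genes outnumber raised ones in the members, the other negative regulators, the cascade, the receptors, the ETS factors and the immediate early genes. Over all genes, too, more were lowered (18.4%) than raised (13.3%).

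The promoters of 8 members could be matched, those of Dusp1, Dusp2, Dusp5, Dusp6, Spry1, Spry2, Spred1 and Spred2, and were searched on both strands. The ETS motif CCGGAA was found in Spry2 alone, from 34 to 39 bases after the start, against 14.9% of all promoters. The AP-1 motif TGANTCA was found in 0 of the 8, against 7.81% of all. A partial cAMP response element, TGACG, which also lies within the full one, was found in 4 of 8 (20.8% of all), and the GC box GGGCGG in 6 of 8 (35.7% of all). No motif searched stood in all 5 of the members called lowered.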

How the data were processed

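RNA from the germ cells of 6 mice was hybridized to 6 arrays. The deposited values are log2 RMA signals that the authors made in Affymetrix Expression Console (background correction, a common distribution for all arrays, probe summary). Its version and the genome build are not stated in the text or labels read. Such values understate folds of dim probe sets and do not show a change in total mRNA. Of 269751 probe sets, 233753 carried 1 gene symbol. No column belonged to another sample.

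Groups came from the labels. Genes and, separately, probe sets were compared with limma 3.58.1 in R 4.3.3 (2-sided, no covariate or filter), adjusted over all features at a threshold of 0.05. The median standard error over genes was 0.11, and 3 arrays per group limit the precision. Litter and preparation day of the mice are not stated, so differences of either kind cannot be told apart from genotype. The p-values measure the spread between these mice. The steps were checked on simulated data.

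Members and lists were chosen with earlier results of these data known. Named were all members, Mgat1, Egfr, Pdgfra, Etv4, Etv5, Mapk3, up to 3 genes per list by size of change and the 5 genes most like Dusp4. Kit, Id4 and the contractile genes Acta2, Myh11, Cnn1, Tagln and Des were named after their values were seen. Promoters came from RefSeq (GRCm38.p6). Alternatives were a replicate block, leaving out each array, centring, quantile normalization, leaving out the dimmest probe sets, taking the median or brightest probe set, the methods' one-way test, another variance model and group medians. Plots used Python 3.11.15 with matplotlib 3.10.9.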

Additional observations from a re-analysis of the deposited data

How the results depend on the processing

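Dusp1 (-1.09 to -0.75), Spry2 (-0.88 to -0.56) and Dusp4 (0.87 to 1.35) kept direction and call under all 17 alternatives (group medians carry no test). Of 5 lowered members, 3 were called when genes took their median probe set, 2 when they took their brightest probe set, 2 with the adjusted one-way test of the methods, and leaving out single arrays gave 2 to 4. Dusp5 and Dusp6 lost their calls under each of these 3 settings, and Spred1 under the last 2. Dusp6 also lost its call after quantile normalization (-0.40) and after centring on the probe set median (-0.40). Over all genes 4255 were lowered (18.4%), against 2629 with the median probe set (11.4%), 2194 with the brightest (9.48%) and 2408 with the one-way test (10.4%). Of single member probe sets, 8 lowered became 3 and 4 raised became 2 with the one-way test (2.15% and 3.45% of all probe sets), 10 and 6 of 59 without the dimmest 25% (9.25% and 7.77%), 10 and 3 of 30 without the dimmest 50% (18.2% and 11.5%), and leaving out single arrays gave 0 to 5 lowered and 2 to 4 raised. The sign of 4 members that did not pass turned. Dusp2 was at -0.051 with the median probe set and at -0.037 to 0.15 without single arrays. Spred2 was at 0.075 without the dimmest 50% of probe sets, 0.015 with the brightest and -0.23 to 0.025 without single arrays, and Spry1 was at 0.028, 0.028 and -0.22 to 0.0067 in the same order. Spry4 was at 0.012 with group medians and -0.12 to 0.056 without single arrays. The cause was not tested. Centring each array on its median over all probe sets was chosen after seeing the data. It gave 4 lowered members, where 14.8% of all genes were lowered. Raised genes were then 51.6% of calls, against 42.1%.

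With the replicate number as a block, 5 members were lowered and 1 raised, as without it, where 17.4% and 13% of all genes were. Of member probe sets 1 was lowered and 3 raised (0.859% and 2.84% of all probe sets, against 3.97% and 4.98% without the block). Deviations of same-numbered arrays correlated at 0.031, 0.10 and -0.059, and 3 of 6 arrays correlated best with their own number, so the numbers were not taken to pair the mice. The dimmest probe sets, such as the remaining one of Dusp1, carry no background level here, and groups of 3 were too small to look for outlying arrays.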
